A study of Rattus norvegicus with 4 samples.

Results

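The miR-34 family comprises miR-34a, miR-34b and miR-34c, which were taken here as the 3 probes named rno-miR-34a, rno-miR-34b and rno-miR-34c among the 679 rat microRNA (miRNA) probes of the array, without the star forms that stand for the opposite arms. The rat prefix is left out from here on. The cells were rat primary chondrocytes, the cells that make cartilage matrix, seeded at 200000 per ml. They received interleukin-1β (IL-1β), an inflammatory cytokine that drives cartilage breakdown, at 10 ng/ml for 6, 12 or 24 h, or were untreated and collected at 0 h as the control. There were 4 arrays, with 1 sample per group, so that no difference between groups has a replicate check and none was tested. As the control was collected at 0 h alone, IL-1β and time in culture cannot be told apart.

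miR-34 miRNAs are best known as direct transcriptional targets of the tumour suppressor p53. In human and mouse cells they repress transcripts of cell cycle and survival genes, among them Cdk6, Met, Bcl2 and Sirt1, and thereby favour growth arrest, senescence and apoptosis. In mouse and human tissues miR-34a is made widely, whereas miR-34b and miR-34c come from 1 shared transcript and are most abundant in ciliated epithelia and testis. In cultured rat chondrocytes miR-34a has been studied for a part in apoptosis after IL-1β.

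The mature sequences show why the members are treated as a family, and how close their probes are. They are those given for the probes in the array files, identical to the RefSeq entries of build GRCr8, written 5′ to 3′ with the seed (bases 2 to 8), which pairs with target transcripts, in capitals.
miR-34a: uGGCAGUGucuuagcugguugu
miR-34b: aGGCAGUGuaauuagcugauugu
miR-34c: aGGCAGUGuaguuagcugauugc
miR-449a: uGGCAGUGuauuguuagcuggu
miR-449c-5p: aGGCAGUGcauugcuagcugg
These are the 5 probes of the 679 with this seed. miR-449 shares this seed but comes from other hairpins, and is known from multiciliated cells. miR-34b and miR-34c were the closest pair, 2 edits apart, by the substitutions A11G and U23C (position from the 5′ end, the base of miR-34b first). miR-34a was 4 edits from miR-34b and 5 from miR-34c. The nearest probe with another seed was 7 edits away from miR-34c, 8 from miR-34a and 9 from miR-34b. The GC content was 50% for miR-34a, 39.1% for miR-34b and 47.8% for miR-34c.

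The hairpins are shown because both arms of each were on the array, with the arms in capitals (the first is the member, the second its star form).
Mir34a: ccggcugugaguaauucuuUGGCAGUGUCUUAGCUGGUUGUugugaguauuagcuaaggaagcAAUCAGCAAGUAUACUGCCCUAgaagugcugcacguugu
Mir34b: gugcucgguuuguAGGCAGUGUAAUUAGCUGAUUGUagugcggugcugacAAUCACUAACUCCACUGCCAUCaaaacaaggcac
Mir34c: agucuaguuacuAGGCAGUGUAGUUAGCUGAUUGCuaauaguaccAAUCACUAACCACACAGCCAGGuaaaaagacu
In GRCr8, Mir34a lies on the plus strand at chr5:165815952-165816053. Mir34b (chr8:60306609-60306692) and Mir34c (chr8:60306091-60306167) lie on the minus strand with 441 bases between them. All 3 are annotated as miRNA genes.

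The files give the intensity of each spot in scanner units, with 5 spots per probe on each array. The 5 spots are repeats on 1 sample, so that each ± below covers spot-to-spot error only, and the number of arrays limits the precision. Detection required 3 or more of the 5 spots to exceed a limit, the level below which 95% of the empty spots on that array lay. The control array had the highest limit, 151.3 units, and the 6 h array the lowest, 54.2 units, with 96.4 at 12 h and 86.2 at 24 h. Between 187 and 355 miRNAs were detected per array, and 163 on all 4. Summed over all miRNA spots, intensity ran from 2.95e+06 units (control) to 4.71e+06 units (12 h). Of the chondrocyte miRNAs miR-140, miR-140*, miR-455 and miR-455*, the control detected 3 and each treated array 4. The 5 blood, 6 epithelial and 1 liver markers were detected on no array. Of 4 muscle markers, miR-206 was detected on all 4 arrays, miR-1 and miR-133a at 6 h alone and miR-133b on no array. Of 3 neural markers, miR-128 was detected on all 4 arrays, miR-124 at 6 h alone and miR-9 on no array. Of 2 endothelial markers, miR-126 was detected on the 3 treated arrays. In bulk RNA, fewer cells of a type and less RNA per cell cannot be told apart.

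miR-34a, the most widely made member, was the brightest of the 3 and was detected on all 4 arrays, each time with 5 of 5 spots. Its spots averaged 557 ± 41.9 units in the control, 499 ± 40.4 at 6 h, 787 ± 21.6 at 12 h and 1309 ± 62.9 at 24 h (SD over 5 spots). The 24 h spots, at 1246 to 1393 units, did not overlap those of any other array. The 12 h spots, at 763 to 807, lay above the 509 to 603 of the control. These intensities are not scaled between arrays. The sum over all miRNA spots was also higher at 12 h (4.71e+06 units) and 24 h (4.19e+06) than in the control (2.95e+06). After quantile normalization miR-34a was lower at 12 h than in the control (log2 change -0.21). Spots at 6 h, from 448 to 552 units, overlapped those of the control. By its level after quantile normalization, its probe took rank 77 of 679 in the control, 85 at 6 h, 85 at 12 h and 69 at 24 h.

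**Figure D1:**
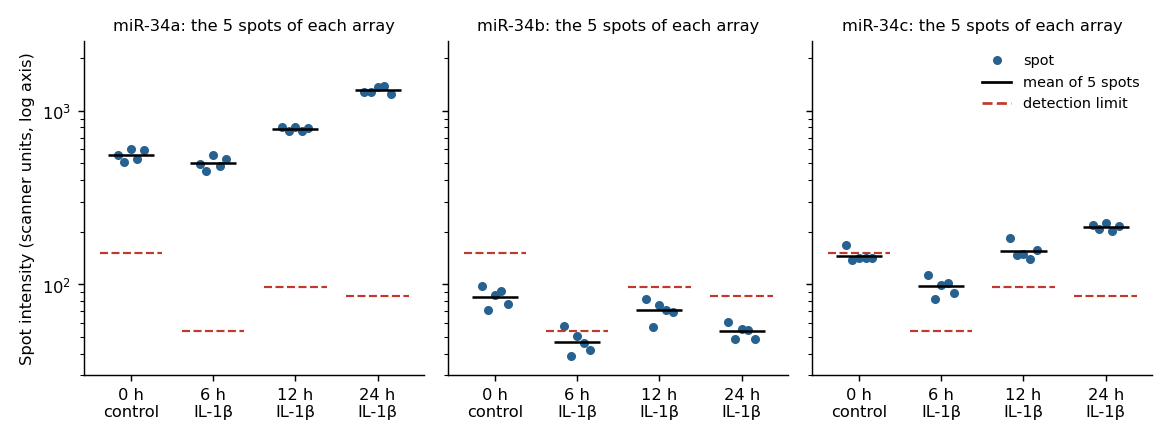
Intensity of the 5 spots of miR-34a, miR-34b and miR-34c (scanner units, log axis) on the 0 h control array and the 6, 12 and 24 h IL-1β arrays; the black line is the mean of the 5 spots and the red dashed line the detection limit of the array. miR-34a lies above the limit on every array, miR-34b below it except for 1 spot at 6 h, and miR-34c above it at 6, 12 and 24 h but with 1 of 5 spots above it in the control.

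miR-34b was not detected on any array. Its spots averaged 85.2 ± 10.8 units in the control, 47.0 ± 7.39 at 6 h, 71.2 ± 9.28 at 12 h and 53.7 ± 5.19 at 24 h. The only spot over the limit was 1 of 5 at 6 h, which read 57.4 units. Hence no fold is given for miR-34b, and its levels have no order.

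miR-34c, from the same transcript as miR-34b in mouse and human, averaged 147 ± 12.0 units in the control, 97.4 ± 12.1 at 6 h, 156 ± 16.8 at 12 h and 214.9 ± 9.44 at 24 h. All 5 of its spots passed the limit at 6, 12 and 24 h, against 1 of 5 in the control, whose mean fell just under the limit. Before any scaling between arrays, the 24 h spots (204 to 227 units) did not overlap those of the other arrays. Although the miR-34b probe differs from that of miR-34c by 2 bases, it stayed dark on the 3 arrays where miR-34c was detected.

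The miR-449 probes of the same seed were dim. miR-449a averaged 43.6 to 76.1 units over the 4 arrays with no spot above a limit. miR-449c-5p averaged 52.5 to 112 units and was detected at 6 h alone, with 3 of 5 spots above the limit and a mean of 54.2 units. Of the 5 probes with this seed, miR-34a was thus detected on 4 arrays, miR-34c on 3, miR-449c-5p on 1, and miR-34b and miR-449a on 0.

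For comparisons between arrays the spots were background-corrected, quantile-normalized on the log2 scale, which gives every array the same distribution, and averaged per probe. On this scale miR-34a stood at 9.48 ± 0.08 in the control, 9.26 ± 0.05 at 6 h, 9.27 ± 0.02 at 12 h and 10.09 ± 0.05 at 24 h (log2 level, spot standard error). The 24 h array was the highest and the control next, though the place of the control depended on the scaling. The levels at 12 and 6 h differed by 0.012 ± 0.054, less than their error. The level of miR-34c was 6.86 ± 0.09 in the control, below detection, and 7.18 ± 0.07, 7.21 ± 0.05 and 7.81 ± 0.02 at 6, 12 and 24 h. Here too the 24 h array was the highest, and 12 and 6 h differed by 0.024 ± 0.086, again less than their error.

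A miRNA was called changed where its log2 difference was at least 1, a 2-fold change, and over 2 times the spot standard error. After 6 h of IL-1β, 0 of the 2 members compared passed, beside 3.66% of all 355 miRNAs compared. miR-34a was at -0.22 ± 0.10 (log2 change from the control) and miR-34c at 0.33 ± 0.11, at least 1.23-fold higher with the control below detection. After 12 h, 0 of 2 passed, beside 9.64% of 249. The changes were -0.21 ± 0.09 for miR-34a and 0.35 ± 0.10 for miR-34c, at least 1.25-fold higher. The signs at 6 and 12 h depended on the scaling. Without normalization miR-34a was at 0.53 at 12 h, and once those values were centred on the median of all miRNAs it was at 0.22 at 6 h. After median scaling miR-34c was at -0.39 at 6 h and -0.55 at 12 h. With plain background subtraction miR-34c passed at both times, at 1.07 and 1.15.

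After 24 h, again 0 of 2 members passed, beside 13.7% of 233 miRNAs compared. miR-34a was 1.53-fold higher at 24 h than in the control, with a log2 change of 0.61 ± 0.10. Without normalization that change was 1.26, past the threshold, with 5 of 5 spots brighter than their counterparts at the same position on the control array. With the control below detection, miR-34c was at least 1.90-fold higher at 24 h under the reported processing. Its log2 change was 0.96 ± 0.09, just under the threshold. That value passed with plain background subtraction (2.35), a smaller normexp offset (1.24) and the median of the spots (1.03), and was 0.19 after median scaling. The median change of all 233 was 0.02, with 45 of them above the change of miR-34a and 22 above that of miR-34c. Of the 2 endothelial markers, miR-126 rose at 24 h (1.12 ± 0.10, at least 1.98-fold higher) and miR-126* was detected on no array. Their sum in the authors' table was 186 at 24 h against 59.95 in the control. The part of such cells in the values of the family was not tested.

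**Figure D2:**
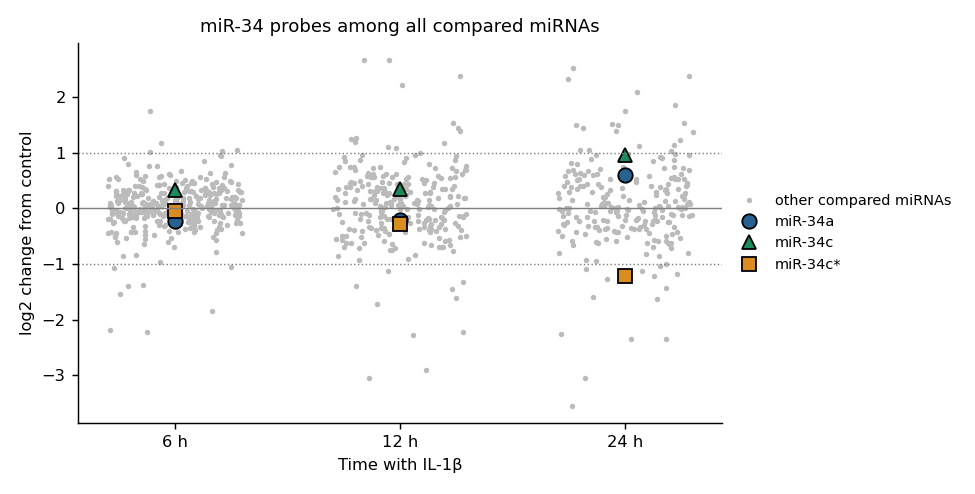
log2 change from the control at 6, 12 and 24 h of IL-1β for each miRNA detected on at least 1 of the 2 arrays (grey points), with miR-34a, miR-34c and miR-34c* marked; dotted lines mark a 2-fold change. miR-34a and miR-34c lie within the bulk at 6 and 12 h. At 24 h they lie at 0.61 and 0.96, above 80.3% and 90.1% of the 233 miRNAs compared and below their 95th percentile of 1.37. miR-34c* lies at -1.21 at 24 h.

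Comparisons among the 3 treated times do not use the control level of a miRNA, although all arrays, the control included, were normalized together. At 24 h against 12 h the log2 change was 0.82 ± 0.06 for miR-34a and 0.61 ± 0.05 for miR-34c, with 0 of 2 passing beside 9.68% of 248. miR-34a passed there after median scaling (1.01) and in the authors' table (1.14), and miR-34c with plain subtraction (1.21). At 24 h against 6 h it was 0.83 ± 0.07 for miR-34a and 0.63 ± 0.07 for miR-34c, with 0 of 2 passing beside 7% of 357. Without normalization miR-34a passed there, at 1.36, and with plain subtraction miR-34c did, at 1.28. Between 12 h and 6 h, 0 of 2 passed beside 1.41% of 355, with 0.01 ± 0.05 for miR-34a and 0.02 ± 0.09 for miR-34c. All 6 comparisons share arrays, and each value at 24 h rests on the same single array.

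In the table of processed intensities that the authors deposited, miR-34a reads 724 in the control, 535 at 6 h, 478 at 12 h and 1116 at 24 h. miR-34c reads 61.6, 82.3, 86.9 and 168 in that order, and miR-34b 5.22, 9.97, 24.2 and 23.3. The medians of that table were 24.3, 22.5, 23.4 and 20.3. As miR-34b was not detected on any array, its values there have no order either. With 50 added before taking log2, the 24 h change from the control in that table was 0.59 for miR-34a. It was 0.97 for miR-34c, whose control level was below detection.

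The star arms were not alike in the 3 hairpins. miR-34a* was not detected on any array, with means between 52.1 units (6 h) and 99.3 units (control). miR-34b*, in contrast to miR-34b, was detected on all 4 arrays with 5 of 5 spots. It averaged 198 ± 20.6 units in the control, 166 ± 26.1 at 6 h, 267 ± 30.3 at 12 h and 172 ± 20.6 at 24 h, and its log2 change from the control was 0.29 ± 0.14, 0.22 ± 0.11 and -0.02 ± 0.11 at the 3 times. The probe of miR-34c* was bright throughout, at 726 ± 83.1 units in the control, 878 ± 145.4 at 6 h, 1057 ± 73.1 at 12 h and 494 ± 37.4 at 24 h. Before any scaling between arrays, its 24 h spots, at 448 to 539 units, lay below all spots of the other arrays.

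miR-34c* was the single miR-34 probe that passed under the reported processing. It fell by 1.21 ± 0.08 on the log2 scale at 24 h against the control, to a level 2.32-fold lower. There 13.7% of the 233 miRNAs compared passed in either direction, and 5.58% of the 233 as lower. Against 6 h miR-34c* fell by 1.17 ± 0.10, beside 7% of 357 that passed, 3.08% as lower. Against 12 h its change was -0.93 ± 0.05, short of the threshold. At 6 and 12 h its change from the control was -0.04 ± 0.12 and -0.28 ± 0.08. The 24 h call against the control ended without normalization (-0.50, or -0.80 once centred) and after median scaling (-0.99). Its sign was negative under all 11 alternatives.

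**Figure D3:**
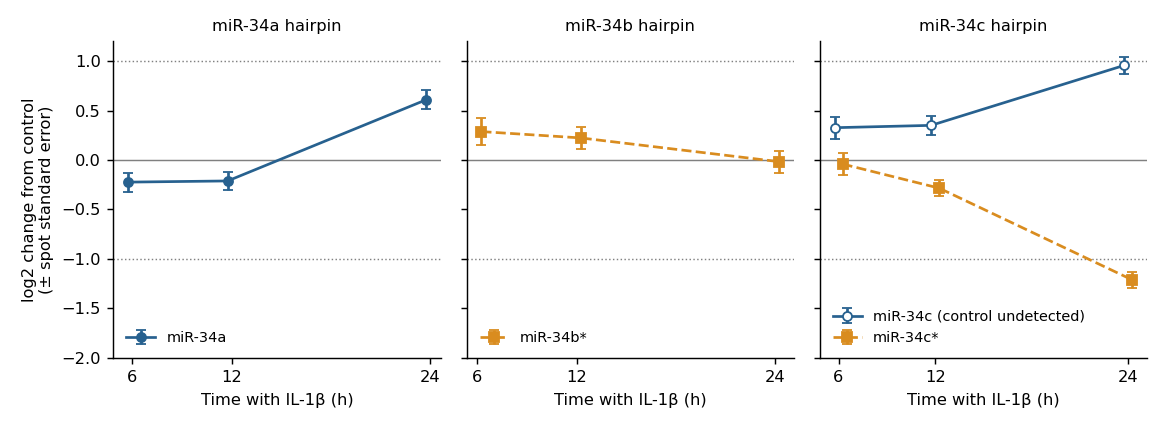
log2 change from the control at 6, 12 and 24 h of IL-1β for the member (circles) and star arm (squares) of each miR-34 hairpin; error bars are the spot standard error, dotted lines a 2-fold change, and open symbols changes from a control level below detection. At 24 h miR-34c stands at 0.96 and miR-34c* at -1.21; miR-34b and miR-34a*, detected on no array, are not drawn.

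The arms of the miR-34c hairpin had changes of opposite sign at 24 h. Both arms were detected on all 3 treated arrays, and there the log2 change of miR-34c exceeded that of miR-34c* by 1.54 ± 0.08 at 24 h against 12 h and by 1.80 ± 0.12 at 24 h against 6 h. Under the alternatives these differences ran from 1.38 to 2.31 (10 alternatives) and from 1.63 to 2.66 (11 alternatives). By size they ranked 3 of 43 and 3 of 83 among hairpins with both arms compared, beside median sizes of 0.39 and 0.34. At 24 h against the control the rank was 3 of 36, beside a median size of 0.39. Opposite signs were not limited to this hairpin, as miR-140 was at 1.37 and miR-140* at -0.31 there. Against the control, where miR-34c was below detection, the miR-34c difference is a bound under the reported processing. It was at least 0.34 at 6 h, 0.60 at 12 h and 2.14 at 24 h. Under the alternatives the difference ran from -0.62 to 1.12 at 6 h and from -0.35 to 1.47 at 12 h. Its sign at these times thus depended on the scaling. At 24 h it ran from 1.18 to 3.78.

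Other miRNAs tied to p53 were read from a list of 11 that p53 induces or whose processing it enhances in human or mouse cells. Of the 11, 10 had a probe. After 6 h, 0 of the 9 compared passed, beside 3.66% of all miRNAs, with a median log2 change of -0.09 beside 0.03 for all. After 12 h, 0 of 7 passed, beside 9.64%, with a median of -0.15 beside 0.09. After 24 h, 0 of 7 passed, beside 13.7%, with a median of 0.41 beside 0.02. That median is the value of miR-192, undetected in the control, and was 0.15 with undetected levels at their bound. miR-22, a p53 target in human cells, was at 0.66 ± 0.05 at 24 h. miR-16, whose processing p53 enhances in human cells, was at 0.28 ± 0.08, and miR-107, another p53 target there, at -0.12 ± 0.10. miR-145, also on the list, was the lowest of the 7 compared, at -0.21 ± 0.06. miR-194, a p53 target undetected in the control, was at 0.63 ± 0.07, which as a bound is at least 1.10-fold. Only miR-143 passed in any of the comparisons of this list, higher at 24 h than at 12 h (1.15 ± 0.06) and than at 6 h (1.07 ± 0.06), with 0.43 ± 0.04 against the control. It was 1 of 7 compared at 24 h against 12 h, beside 9.68% of all miRNAs, and 1 of 9 at 24 h against 6 h, beside 7%. Of the 4 miRNAs reported to target the p53 transcript, miR-25, miR-30d, miR-125b-5p and miR-504, 0 of 4 passed at 6 h, 0 of the 3 compared at 12 h and 0 of 3 at 24 h against the control, beside 3.66%, 9.64% and 13.7% of all miRNAs. Between treated times 0 passed as well, beside 1.41% to 9.68%. miR-25 was at -0.11 ± 0.11 and miR-125b-5p at -0.16 ± 0.05 at 24 h against the control.

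The miRNAs most like miR-34a over the 4 arrays were found by the Euclidean distance between log2 levels centred per miRNA, over the 162 other miRNAs detected on all 4. miR-24 was the nearest, at a distance of 0.13, followed by miR-31 (0.16), miR-22 (0.16), miR-106b (0.18) and miR-872 (0.22), beside a median of 0.81. miR-24 had log2 levels of 14.29, 13.95, 13.91 and 14.74 at 0, 6, 12 and 24 h, and miR-106b 9.37, 9.22, 9.13 and 10.19. Each of the 5 was highest at 24 h. With 4 arrays many miRNAs can share such an order, so the list is a description. miR-34b and miR-34c, not detected on all 4 arrays, were not ranked.

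**Figure D4:**
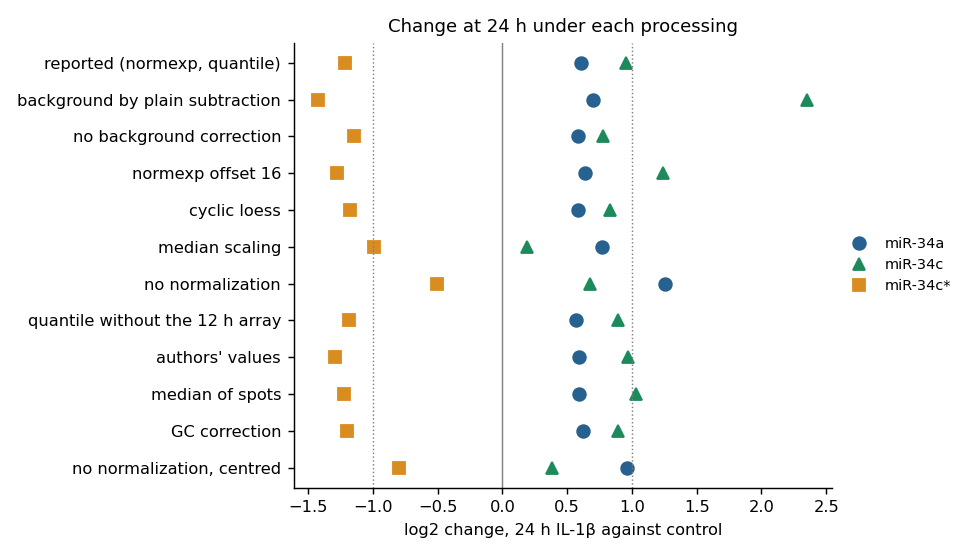
log2 change at 24 h of IL-1β against the control for miR-34a, miR-34c and miR-34c* under the reported processing (top row) and each alternative; dotted lines mark a 2-fold change. miR-34a runs from 0.56 to 1.26, miR-34c from 0.19 to 2.35 and miR-34c* from -1.42 to -0.50, and none of the 3 changes sign; the control level of miR-34c was below detection.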

How the data were processed

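Per the labels, total RNA was column-extracted, small RNAs under 300 nt were kept, tailed and ligated to a tag for Cy5 staining. The authors deposited for each array the mean intensity per spot in scanner units, from which, by the values of the empty spots, no background had been subtracted, and a table of processed intensities whose method is not given in the sources used here. Scanner and image software are not given there either.

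All 3968 spots of each array were corrected for background with normexp (limma 3.58.1, R 4.3.3, offset 50), and the 3395 miRNA spots were put on log2, quantile-normalized and averaged over the 5 spots of a probe. Python 3.11.15, numpy 2.4.6, pandas 2.3.3 and matplotlib 3.10.9 served for the rest. Spot variances on both arrays gave each standard error. A comparison took the miRNAs detected on at least 1 of its 2 arrays. For a bound, an undetected level was set to the lowest detected level of that array (6.89 on the log2 scale in the control), or to its own if higher. Each bound holds for the reported processing alone and includes no spot error. With 1 array per group no p-value was computed. The normalization and the calling rule were tested on simulated data with large changes in bright probes. Small changes and changes in dim probes were not covered by that test. The members, the lists and the rules were chosen with earlier results of these data known. Named miRNAs are the members, their star arms, miR-449, the p53 lists, marker miRNAs and the 5 nearest to each member detected on all 4 arrays. Alternatives covered the background, the scaling, the filter, the spots and GC content. Centring, a limit from dim probes, list medians at bounds and all alternatives for miR-34c* were added after seeing the data.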

Additional observations from a re-analysis of the deposited data

Results flagged for a closer look

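miR-34a had log2 changes from the control of opposite sign at different times, -0.22 at 6 h and -0.21 at 12 h against 0.61 at 24 h, each over 2 times its spot standard error. With 1 array per time the difference was not tested. The 6 h change was 0.22 and the 12 h change 0.12 when the changes without normalization were centred on their median.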

How the results depend on the processing

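At 24 h against the control, miR-34a and miR-34c stayed above 0 under all 11 alternatives, as both did at 24 h against 12 h under the 10 that could be run and against 6 h under 11. The threshold was passed by miR-34a at 24 h without normalization (1.26 against the control, 1.36 against 6 h, and 1.32 against 6 h once centred), after median scaling (1.01 against 12 h) and in the authors' table (1.14 against 12 h). For miR-34c it was passed with plain subtraction at 6 h (1.07), 12 h (1.15) and 24 h (2.35), at 24 h against 12 h (1.21) and against 6 h (1.28), and at 24 h against the control with an offset of 16 (1.24) and the median of spots (1.03). Signs at the earlier times turned: miR-34a was at 0.22 at 6 h and 0.12 at 12 h after centring and at 0.53 at 12 h without normalization. miR-34c was at -0.020 and -0.017 at the 2 times after cyclic loess, at -0.39 and -0.55 after median scaling, at -0.32 at 6 h without normalization and at -0.19 at 12 h after centring. For 12 h against 6 h, miR-34a was at -0.064 (median scaling), -0.15 (authors' table) and -0.0055 (GC correction), and miR-34c at -0.16 (median scaling), -0.050 (median of spots) and -0.016 (GC correction). For miR-34c*, the call at 24 h against the control ended after median scaling (-0.99), without normalization (-0.50) and once centred (-0.80), and against 6 h without normalization (-0.80) and once centred (-0.84). It passed against 12 h with plain subtraction (-1.10) and without normalization (-1.07). Without normalization it was at 0.30 at 6 h (0.62 once centred, 0.22 after median scaling), at 0.57 at 12 h (0.16 once centred), and at 0.26 at 12 h against 6 h. The causes were not tested. The median of all miRNAs lay at -0.40 (6 h), -0.37 (12 h) and -0.19 (24 h) after median scaling, and without normalization at -0.32, 0.40 and 0.30. Relative to it, at 24 h miR-34a was at 0.96 and miR-34c at 0.38. Changes at 24 h ran with GC content across the 233 miRNAs compared (r = -0.44); after correction miR-34a was at 0.62 and miR-34c at 0.89. Of the 164 miRNAs detected on both arrays, 18 (11.0%) passed at 24 h against the control, beside 32 of 233 (13.7%) under the reported filter. With a limit from the dim probes, miR-34c was detected on 4 arrays in place of 3, and miR-34b on 0 under each limit tried. The levels of miR-34b beside miR-34c, listed as an alternative, are the values given per array. No paired analysis was possible because each group has 1 array.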

Other observations

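The empty spots were not the dimmest on the arrays. The control array had 59.5% of its 679 probes with a median below that of the empty spots, the 6 h array 22.8%, the 12 h array 46.7% and the 24 h array 62.0%. miR-34b in the control, at a mean of 85.2 units beside an empty-spot median of 122.6, lay below them. Another limit was taken from the dim probes themselves, chosen after seeing this. It was lower for the control (117.1 units), 12 h (79.3) and 24 h (57.1), but higher for 6 h (56.1 beside 54.2). By it miR-34c was detected in the control and miR-34a* at 24 h, whereas miR-34b was still detected on 0 arrays. miR-449c-5p was no longer detected at 6 h by this limit.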
